A study of Mus musculus with 16 samples.

Results

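A set of 10 genes of the muscle protein-breakdown programme were followed in ventricular myocytes: the ring-finger ubiquitin ligases Trim63, Trim54 and Trim55, the F-box ligase subunits Fbxo32 and Fbxo40, the ligase subunit Asb2, the transcription factors Foxo1, Foxo3 and Foxo4, and the transcription factor Klf15. They were taken by symbol from the deposited count table, which held all 10 of them among 35682 genes. The cells came from 16 adult mice whose aortas had been narrowed surgically (transverse aortic constriction, TAC, which raises the pressure load on the left ventricle) 9 weeks earlier. Of these, 8 were of the line B3AR-Tg, which carries a transgene and is named for the beta-3 adrenergic receptor, and 8 were their wild-type (WT) littermates. No group without surgery was analysed here. The promoter and species of the transgene, the sex and exact age of the mice, and the strain were not given in the sources used here. The labels number the animals of each genotype as biological replicates 1 to 8, each with its own name.

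Ubiquitin ligases attach ubiquitin to chosen proteins and so mark them for the proteasome. In striated muscle, Trim63 (MuRF1) and Fbxo32 (atrogin-1, also called MAFbx) are the best-known members and rise in skeletal muscle when it wastes. FoxO factors activate both genes. Akt and the related kinase Sgk1 phosphorylate FoxO factors and thereby keep them out of the nucleus, and glucocorticoids induce Klf15, which regulates amino acid breakdown in muscle and heart.

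No member passed the test of genotype. In edgeR's quasi-likelihood test, 0 of the 10 members passed an adjusted p of 0.05, against 4.91% of the 10945 genes tested (537 genes). At an unadjusted p under 0.05 the count was also 0 of 10, against 19.3% of all tested genes, and DESeq2 and limma voom each called 0 of 10. Group ranges overlapped for all 10 members, while they did not overlap for 0.448% of tested genes. The fitted log2 fold change (B3AR-Tg minus WT) was above 0 for 7 members and below 0 for 3, of which Trim63 and Trim55 were above 0 with library-size scaling. Its median was 0.10 over the members and 0.01 over all tested genes. A p that misses the threshold does not show equal levels, so the 95% intervals are given below with each gene. All 10 intervals lay within 1 log2 unit of zero and 7 of the 10 within 0.5, the widest limits being −0.40 and 0.57. All 10 members passed the low-count filter, and no animal had fewer than 37 counts of any of them.

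**Figure D1:**
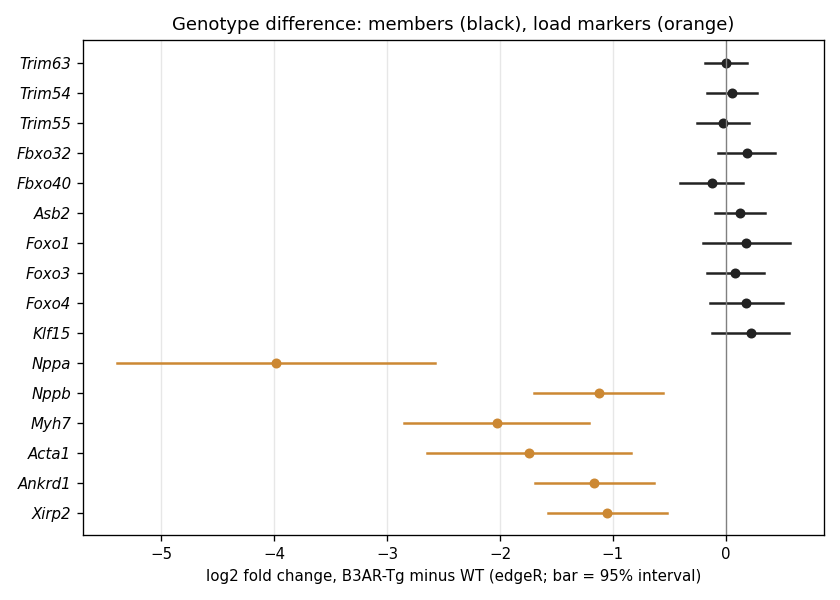
Log2 fold change between B3AR-Tg and WT (x axis, edgeR) with its 95% interval (bars) for the 10 members in black and 6 markers of cardiac load in orange (y axis), 8 animals per genotype. Every member's interval spans zero, whereas all 6 load markers lie below zero, from −1.05 for Xirp2 to −3.99 for Nppa.

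The libraries held 5985335 to 14365864 counts, and library totals did not differ beyond the spread between animals (exact permutation p = 0.136). The preparations carried the defining transcripts of heart muscle, since all 8 cardiomyocyte markers were abundant, with a summed level of 62512 to 85042 CPM in WT against 67838 to 104543 CPM in B3AR-Tg (CPM is a count per library total after TMM scaling). Skeletal muscle markers were near zero, with a summed level of at most 1.62 CPM in any animal and 4 of the 8 never above 3 counts. Summed markers of fibroblasts, endothelial cells and leukocytes were lower in B3AR-Tg. Summed fibroblast markers were 33.1 to 93.0 CPM in WT against 10.01 to 44.6 CPM in B3AR-Tg (exact permutation p = 0.000932), and 1 of the 7, Tcf21, was never above 3 counts. Endothelial markers were 82.4 to 122 CPM against 34.5 to 148 CPM (exact permutation p = 0.0267), leukocyte markers 4.27 to 13.6 CPM against 2.12 to 6.58 CPM (0.0253), and mural cell markers 51.9 to 95.3 CPM against 19.6 to 77.6 CPM (0.0575). Leukocyte markers were little counted, with at most 40 counts of any in 1 animal. Of the 7 leukocyte markers 3 passed the low-count filter, and 0 passed the adjusted threshold. A non-myocyte score of the fibroblast, endothelial, leukocyte and mural markers was lower by 0.79 log2 units in B3AR-Tg (exact permutation p = 0.000622). The 6 load markers all fell in the same animals, with a median log2 fold change of −1.45. In such bulk samples, fewer cells of a type and less RNA per cell cannot be told apart.

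Trim63 encodes MuRF1, a ring-finger ligase of the sarcomere that ubiquitinates myofibrillar proteins. Its level in WT was 122 CPM in the lowest animal, 130.3 CPM at the median and 152 CPM in the highest. In B3AR-Tg the lowest, median and highest animals had 96.4, 133 and 156 CPM. The B3AR-Tg values lay on both sides of the WT range, with 2 animals above it and 1 below. Group means were 135.4 ± 11.3 CPM for WT and 135.3 ± 19.2 CPM for B3AR-Tg (SD, n = 8 each). The log2 fold change was −0.00093 with a standard error of 0.089 (95% interval −0.19 to 0.18, edgeR adjusted p = 0.998). On the linear scale the interval ran from 0.879-fold to 1.14-fold. The 1 animal below the WT range, B3AR-Tg replicate 1, was also the lowest of its genotype for Fbxo32 and the highest for Trim54, Trim55, Fbxo40 and Foxo3. Without it, the Trim63 log2 fold change was 0.06 (edgeR adjusted p = 0.713).

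The Trim63 promoter is shown because it held the only FoxO site among the member promoters found, next to a glucocorticoid receptor element, and because the MuRF family member Trim54 lacked both in the same window. RefSeq promoter windows (GRCm38.p6, 250 bases before to 50 after the start site) were found for 7 of the 10 members, in 9 windows. Fbxo32, Trim55 and Foxo4 had no entry. In the 250 bases before the start site below, read 5′ to 3′ on the gene's strand, capitals mark the FoxO site TGTTTAC and the palindromic receptor element (GNACA, any 3 bases, then TGTNC) in Trim63 (chr4:134314870-134315119, plus strand), and the receptor half-site TGTTCT, read on the opposite strand, in Trim54 (chr5:31116362-31116611, plus strand).
Trim63: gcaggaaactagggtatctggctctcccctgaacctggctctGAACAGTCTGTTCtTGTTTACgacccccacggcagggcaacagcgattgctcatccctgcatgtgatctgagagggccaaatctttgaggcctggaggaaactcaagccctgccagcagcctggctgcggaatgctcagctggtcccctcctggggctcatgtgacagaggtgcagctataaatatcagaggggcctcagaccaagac
Trim54: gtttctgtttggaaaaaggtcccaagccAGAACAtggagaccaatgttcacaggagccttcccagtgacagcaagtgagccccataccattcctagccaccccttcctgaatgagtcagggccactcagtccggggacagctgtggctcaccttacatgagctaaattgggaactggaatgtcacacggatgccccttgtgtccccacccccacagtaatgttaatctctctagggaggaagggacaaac
In Trim63 the receptor element spans the bases 208 to 196 before the start site and the FoxO site the bases 194 to 188, so 1 base separates them. The half-site TGTTCT overlaps the receptor element in Trim63. Searched on both strands, TGTTTAC occurred in 3.65% of all 32851 promoter windows, the receptor element in 0.475% and TGTTCT in 19.0%. Of the 7 matched members, TGTTTAC and the receptor element were found in Trim63 only, and TGTTCT in Trim63, Trim54 and Fbxo40. These are matches of letters, not measured binding, and the myocyte level of Trim63 given above did not pass the test of genotype.

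Trim54 (MuRF3) and Trim55 (MuRF2) are the close relatives of Trim63 and bind microtubules and the sarcomere. Trim54 was 44.6, 52.8 and 69.5 CPM in the lowest, median and highest WT animals and 42.2, 59.5 and 70.8 CPM in B3AR-Tg. The ranges coincided nearly end to end, and the log2 fold change was 0.06 (standard error 0.11, 95% interval −0.16 to 0.28, edgeR adjusted p = 0.812). Trim55 was 40.0, 50.1 and 61.0 CPM in WT, against 33.6, 46.1 and 62.5 CPM in B3AR-Tg, with 2 of 8 B3AR-Tg animals above the WT median. Its log2 fold change was −0.02 (standard error 0.11, 95% interval −0.26 to 0.21, edgeR adjusted p = 0.938). Trim63 and Trim54 transcripts were 74.3% identical over 828 aligned bases, and how reads matching both were assigned was not given in the sources used here.

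Fbxo32 and Fbxo40 are F-box proteins, the parts of cullin-based ligases that choose the substrate. Fbxo32 acts on regulators of growth such as calcineurin in heart, and Fbxo40 on the insulin receptor substrate IRS1 in skeletal muscle. Fbxo32 was 169, 218 and 249 CPM in the lowest, median and highest WT animals and 144, 252 and 326 CPM in B3AR-Tg. Of the B3AR-Tg animals 5 lay above every WT animal and 1, replicate 1, lay below every WT animal. Group means were 218 ± 25.7 and 248 ± 52.5 CPM (SD, n = 8 each), and the log2 fold change was 0.18 (standard error 0.12, 95% interval −0.07 to 0.44, edgeR adjusted p = 0.435), the smallest p of the members (0.145 unadjusted). Without B3AR-Tg replicate 1 it was 0.27 (edgeR adjusted p = 0.107). Fbxo40 was 242, 322 and 403 CPM in WT, against 225, 284 and 428 CPM in B3AR-Tg. It had the lowest fitted value of the members, a log2 fold change of −0.12 (standard error 0.13, 95% interval −0.40 to 0.16, edgeR adjusted p = 0.659).

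Asb2 is the substrate-binding subunit of a cullin-5 ligase that acts on filamins and, in heart, desmin. It was 271.5, 306 and 401 CPM in the lowest, median and highest WT animals and 271.2, 333 and 434 CPM in B3AR-Tg. The 2 B3AR-Tg animals above the WT range were replicates 2 and 3, and the log2 fold change was 0.12 (standard error 0.11, 95% interval −0.10 to 0.34, edgeR adjusted p = 0.558). With the non-myocyte score as a covariate the value was −0.09 (edgeR adjusted p = 0.822).

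Foxo1, Foxo3 and Foxo4 are forkhead transcription factors that are held in the cytoplasm by insulin and Akt signalling. Foxo1 was 4.32, 6.68 and 9.61 CPM in the lowest, median and highest WT animals and 4.89, 7.06 and 10.9 CPM in B3AR-Tg. It was the least counted member, with 37 to 125 counts per library, and its interval was the widest, −0.20 to 0.57 around a log2 fold change of 0.18 (standard error 0.19, edgeR adjusted p = 0.630). The Foxo1 value was 0.09 without B3AR-Tg replicate 4, 0.11 without WT replicate 8 and 0.29 without WT replicate 3, and with the non-myocyte score as a covariate it was 0.38 (edgeR adjusted p = 0.520). Foxo3 was 56.2, 76.8 and 95.8 CPM in WT, against 50.9, 85.3 and 93.0 CPM in B3AR-Tg. In B3AR-Tg 7 of 8 animals lay above the WT median and replicate 3 lay below every WT animal, and the log2 fold change was 0.09 (standard error 0.12, 95% interval −0.17 to 0.34, edgeR adjusted p = 0.750). Leaving out single animals gave Foxo3 values of 0.03 (without WT replicate 5) to 0.16 (without B3AR-Tg replicate 3). Foxo4 was 6.88, 11.2 and 14.8 CPM in WT, against 8.66, 12.4 and 16.7 CPM in B3AR-Tg. Its log2 fold change was 0.18 (standard error 0.15, 95% interval −0.14 to 0.50, edgeR adjusted p = 0.551). For all 3 factors the spread between animals of a genotype was wider than the distance between genotype means.

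Klf15 is a Krüppel-like zinc finger factor that represses hypertrophic genes in the heart. It was 16.5, 19.3 and 29.5 CPM in the lowest, median and highest WT animals and 16.1, 24.4 and 36.0 CPM in B3AR-Tg. Means were 21.4 ± 4.82 and 24.9 ± 7.30 CPM (SD, n = 8 each), and 6 of 8 B3AR-Tg animals lay above the WT median. The log2 fold change was 0.22 (standard error 0.17, 95% interval −0.12 to 0.56, edgeR adjusted p = 0.493), and it was 0.13 without B3AR-Tg replicate 3, 0.14 without B3AR-Tg replicate 2 and 0.11 in limma voom. It turned to −0.31 with the non-myocyte score as a covariate (95% interval −0.71 to 0.10, edgeR adjusted p = 0.489). Within B3AR-Tg, Klf15 and the non-myocyte score had Pearson r = −0.86 and Spearman rho = −0.86 (exact permutation p = 0.00469 and 0.0107, n = 8), and neither passed adjustment over the 40 relations of members with scores (0.188 and 0.290). Without the 2 animals farthest from the median score r was −0.84. In WT the same relation had r = −0.22 and rho = −0.12 (exact permutation p = 0.613 and 0.793, n = 8).

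**Figure D2:**
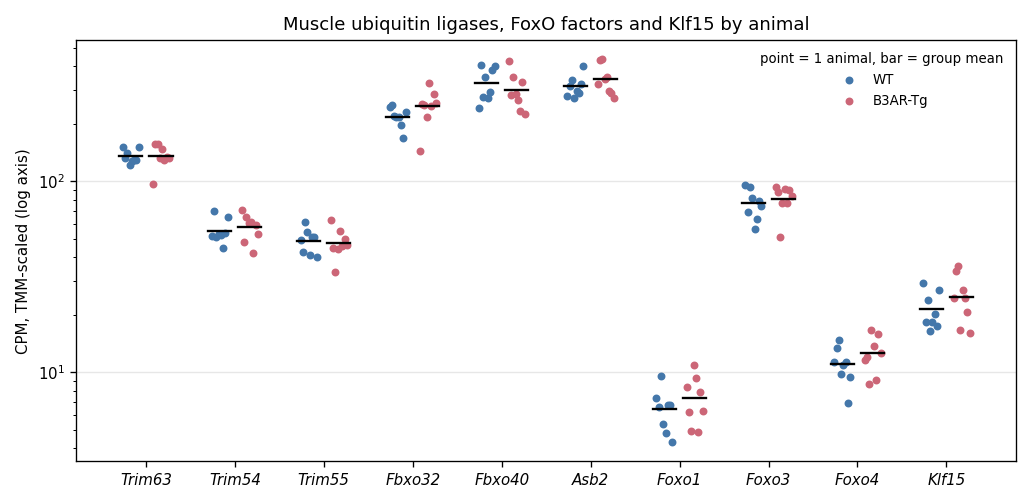
CPM on a log axis for the 10 members (x axis) in 8 WT animals (blue) and 8 B3AR-Tg animals (red), where each point is 1 animal and each bar a group mean. The groups overlap for every gene, and the low red points of Trim63 (96.4 CPM) and Fbxo32 (144 CPM) belong to B3AR-Tg replicate 1.

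Levels of different genes were compared per kilobase of exon, using the union of coding-transcript exons in GENCODE M21. On this scale Asb2 was highest, with a mean of 114 CPM per kilobase over the 16 animals, followed by Trim63 at 71.8, Fbxo40 at 57.1, Trim54 at 39.2, Fbxo32 at 33.4 and Trim55 at 18.6. The transcription factors were lower, with Foxo3 at 10.4, Klf15 at 8.30, Foxo4 at 3.73 and Foxo1 at 0.795 CPM per kilobase. Some neighbours in this order were not separated in every animal. Trim63 exceeded Fbxo40 in 13 of 16 animals, Trim54 exceeded Fbxo32 in 13 of 16, Fbxo32 exceeded Trim55 in 15 of 16, and Foxo3 exceeded Klf15 in 14 of 16. The other 5 neighbouring pairs kept their order in 16 of 16. The length of the longest coding transcript, an alternative chosen after the values were seen, gave the same order in both genotypes. The length of the shortest coding transcript, also chosen then, did not. With it Foxo3, whose shortest transcript has 514 bases, was highest at a mean of 149 CPM per kilobase in WT and 158 in B3AR-Tg, followed by Asb2 (138 and 149.9), Fbxo40 (129.9 and 119) and Trim63 (73.0 in both), so the place of Foxo3 rests on the transcript length used. Within the FoxO family, Foxo3 made up 70.4% ± 5.22 of the per-kilobase sum in WT and 69.1% ± 4.34 in B3AR-Tg, Foxo4 24.4% ± 4.99 and 25.5% ± 3.53, and Foxo1 5.16% ± 0.867 and 5.42% ± 1.10 (SD, n = 8 each). These shares used the exon union and also rest on the transcript length. With the shortest coding transcript, WT means were 149 for Foxo3, 8.19 for Foxo4 and 0.744 CPM per kilobase for Foxo1.

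**Figure D3:**
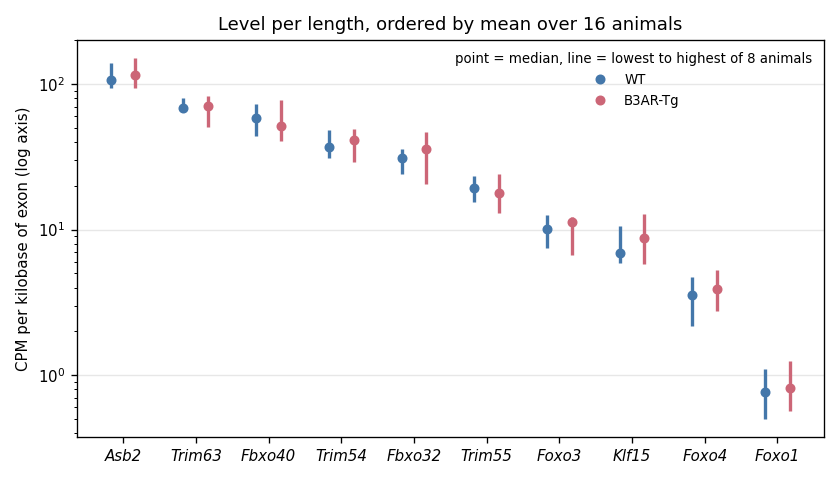
CPM per kilobase of exon on a log axis for the 10 members, ordered by their mean over 16 animals, with the median (point) and the lowest to highest animal (line) of 8 WT (blue) and 8 B3AR-Tg (red) mice. Asb2 is highest and Foxo1 lowest in both genotypes, and the red and blue lines of each gene overlap.

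Ratios of members within an animal do not depend on how libraries are scaled, and 3 were tested. The log2 ratio of Trim63 to Fbxo32 counts was −0.68 ± 0.16 in WT and −0.85 ± 0.21 in B3AR-Tg (SD, n = 8 each), a difference of −0.17 (two-sided exact permutation p = 0.0876, 0.263 adjusted over the 3 ratios). This difference moved below an unadjusted exact permutation p of 0.05 when WT replicate 2 (−0.20, p = 0.0463) or B3AR-Tg replicate 1 (−0.21, p = 0.0384) was left out. The log2 ratio of Foxo1 to Foxo3 was −3.58 ± 0.31 and −3.49 ± 0.36 (exact permutation p = 0.614, adjusted 0.921). The log2 ratio of Klf15 to Foxo1 was 1.73 ± 0.44 and 1.76 ± 0.73 (exact permutation p = 0.941, adjusted 0.941). The smallest p this design allows is 0.000155.

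Members varied together in a few pairs. Correlations of log2 CPM were computed within each genotype for the 45 pairs, 90 relations in all, and 2 passed an adjusted permutation p of 0.05 for Pearson's r. An unadjusted exact permutation p below 0.05 was found for 8 of the 90. In WT, Trim63 and Klf15 rose and fell together (r = 0.97, exact permutation p = 0.00067, adjusted 0.0301; Spearman rho = 0.93, p = 0.00223, adjusted 0.1004; n = 8). Leaving out the 2 animals farthest from the median of Trim63 gave r = 0.89, and leaving out any 1 animal gave 0.95 to 0.98. The WT animals highest for both were replicates 1 and 8, and replicate 4 was lowest for both. In B3AR-Tg the same pair had r = 0.41 (exact permutation p = 0.329, adjusted 0.770; rho = 0.62, p = 0.115, adjusted 0.796; n = 8) and r = 0.81 without the 2 animals farthest from the median. Leaving out B3AR-Tg replicate 1 alone gave r = 0.86, so this animal decided the lower value. Whether the relation differed between genotypes was not tested.

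In B3AR-Tg, Trim55 and Foxo3 rose and fell together (r = 0.89, exact permutation p = 0.00062, adjusted 0.0301; rho = 0.93, p = 0.00223, adjusted 0.1004; n = 8), and r was 0.71 without the 2 animals farthest from the median of Trim55. In WT their r was 0.63 (exact permutation p = 0.0956, adjusted 0.669; rho = 0.55, p = 0.171, adjusted 0.871; n = 8), and 0.53 without such animals. Trim63 and Fbxo32, the 2 classical atrophy genes, had r = 0.49 in WT (exact permutation p = 0.220, adjusted 0.669; rho = 0.62, p = 0.115, adjusted 0.796; n = 8; 0.22 without the 2 farthest animals). In B3AR-Tg their r was 0.81 (exact permutation p = 0.0351, adjusted 0.451; rho = 0.52, p = 0.197, adjusted 0.871; n = 8; 0.35 without the 2 farthest animals), and without replicate 1 it was 0.23, so that value rested on 1 animal. Foxo1 and Foxo4 had r = 0.86 in B3AR-Tg (exact permutation p = 0.00801, adjusted 0.240; rho = 0.79, p = 0.0279, adjusted 0.503; n = 8; 0.71 without the 2 farthest animals) and r = 0.46 in WT (exact permutation p = 0.254, adjusted 0.693; rho = 0.62, p = 0.115, adjusted 0.796; n = 8; 0.0029 without them). The WT value of this pair rested on single animals, since r was 0.86 without WT replicate 7 and 0.13 without WT replicate 3. Trim54 and Fbxo40 had r = 0.71 in WT (exact permutation p = 0.0468, adjusted 0.527) and 0.77 in B3AR-Tg (0.0247, adjusted 0.428). Without the 2 farthest animals these were 0.29 and 0.89. Asb2 and Klf15 had r = 0.81 in B3AR-Tg (exact permutation p = 0.0164, adjusted 0.369) and 0.37 in WT (0.377). Without the 2 farthest animals these were 0.39 and −0.37, and leaving out single WT animals gave −0.03 to 0.83. Trim55 and Foxo1 had r = 0.76 in WT (exact permutation p = 0.0285, adjusted 0.428) and 0.57 in B3AR-Tg (0.138). Their values without the 2 farthest animals were 0.44 and 0.32. Signs matched between genotypes for 30 of the 45 pairs, 18 positive and 12 negative, and were opposite for 15.

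**Figure D4:**
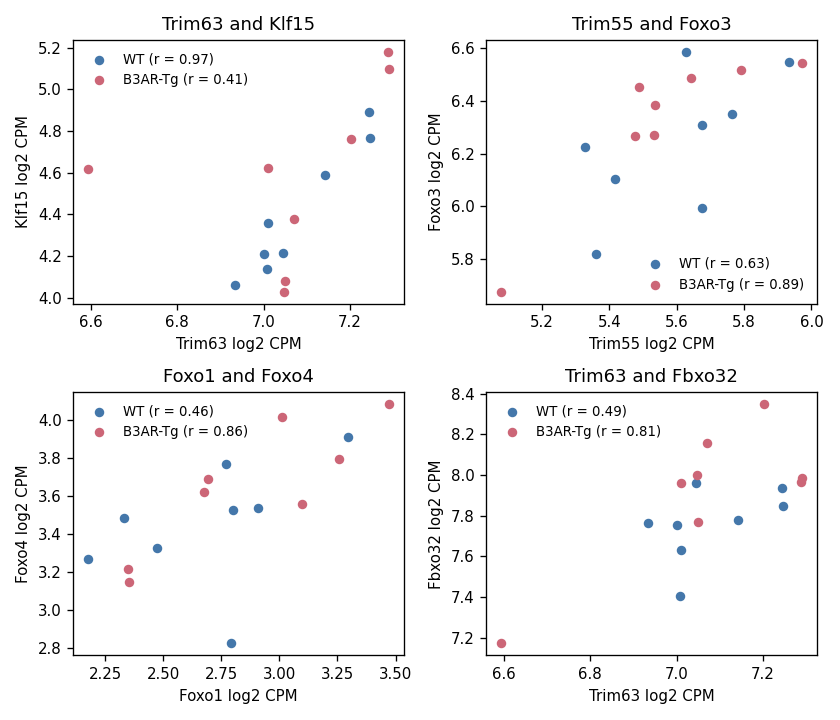
Log2 CPM of 4 pairs of members against each other, each point being 1 of 8 WT (blue) or 8 B3AR-Tg (red) animals, with Pearson's r within each genotype. WT animals fall near a line for Trim63 and Klf15 (r = 0.97), and the isolated red point at the left of both Trim63 panels is B3AR-Tg replicate 1.

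Within a genotype, load markers and members were compared across animals, with the load score being the mean log2 level of the 6 load marker transcripts, not a measured pressure. Of the 40 relations with the load and non-myocyte scores, 0 passed an adjusted exact permutation p of 0.05 and 4 had an unadjusted p below it. Trim63 showed r = −0.01 with the load score in WT (exact permutation p = 0.967, adjusted 0.970; rho = 0.00, p = 1.00; n = 8). Without the 2 animals farthest from the median score r was 0.63, so the value near zero rested on them. Other relations, named after their values were seen, also moved widely without such animals. With the load score in B3AR-Tg, r went from −0.05 to −0.89 for Foxo4 and from −0.17 to −0.78 for Foxo1. With the non-myocyte score in WT, r went from 0.18 to −0.87 for Fbxo32. In B3AR-Tg the Trim63 r was −0.03 (exact permutation p = 0.937, adjusted 0.970; rho = 0.10, p = 0.840; n = 8; −0.11 without the 2 farthest animals). Trim54 had the highest r with the load score in WT (r = 0.76, exact permutation p = 0.0246, adjusted 0.327; rho = 0.81, p = 0.0218, adjusted 0.290; n = 8; 0.86 without the 2 farthest animals). In the same WT animals Trim54 and the non-myocyte score gave similar values (r = 0.82, exact permutation p = 0.0138, adjusted 0.277; rho = 0.81, p = 0.0218, adjusted 0.290; n = 8), with r = 0.21 without the 2 farthest animals, so that relation rested on them. In B3AR-Tg the Trim54 r was 0.17 with the load score and 0.26 with the non-myocyte score (exact permutation p = 0.684 and 0.527, n = 8). Asb2 and the non-myocyte score had r = −0.73 in B3AR-Tg (exact permutation p = 0.0374, adjusted 0.374, n = 8). Their r in WT was 0.30 (exact permutation p = 0.457, adjusted 0.970, n = 8).

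The genes most like each member across animals were listed as a description, with no test, from all tested genes after each genotype's mean was removed (16 animals). This listing was chosen after the values were seen. Foxo1 was most like Pdia3, a protein disulfide isomerase of the endoplasmic reticulum (Pearson r = 0.94), and Acsf2 was also among its 3 nearest genes (0.90). Trim63 was most like Dcaf15 (0.83), a substrate receptor of a cullin-4 ligase, and Art1 (0.81). Asb2 was most like Nkx2-5 (0.87), a core cardiac transcription factor, Klf15 like Flcn (0.85), the folliculin gene, and Trim55 like Foxn3 (0.89), a forkhead factor outside the FoxO family. No member was among the 3 nearest genes of another member.

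Around the members, 5 lists of pathway genes held 125 symbols, of which 119 were tested and 6 passed the adjusted threshold over all genes (3 higher, 3 lower, 5.04% of those tested against 4.91% of all tested genes, of which 2.03% were higher and 2.88% lower). Akt2, the kinase that carries insulin signals to FoxO factors, was 68.2, 79.2 and 90.9 CPM in the lowest, median and highest WT animals and 82.6, 99.5 and 110.4 CPM in B3AR-Tg. In B3AR-Tg 6 of 8 animals were above every WT animal, and Akt2 rose by 0.32 on the log2 scale (standard error 0.08, edgeR adjusted p = 0.0192). Sgk1, which also phosphorylates FoxO factors, was 15.6, 23.4 and 26.8 CPM in WT, against 8.92, 14.3 and 24.9 CPM in B3AR-Tg, with 5 of 8 B3AR-Tg animals below every WT animal and a log2 fold change of −0.59 (standard error 0.16, edgeR adjusted p = 0.0384). The list of FoxO regulators thus had 1 gene higher and 1 lower of 18 tested, with a median log2 fold change of −0.03 against 0.01 over all tested genes.

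With the non-myocyte score as a covariate, which itself differed with genotype, the Sgk1 value was −0.21 (edgeR adjusted p = 0.678) and the Akt2 value 0.34 (0.163). Sgk1 lost its call when any of WT replicates 1, 2, 4, 6 and 7 or B3AR-Tg replicates 2, 3, 5, 6, 7 and 8 was left out (edgeR adjusted p 0.0513 to 0.0852). Scaling by library size alone ended the Sgk1 call as well (0.0857).

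Of 22 tested targets of FoxO factors, 1 fell and 0 rose, with a median log2 fold change of 0.04. Eif4ebp1, which encodes a repressor of translation, was 39.2, 41.9 and 59.6 CPM in WT, against 30.8, 35.1 and 40.4 CPM in B3AR-Tg, so 5 of 8 B3AR-Tg animals lay below every WT animal (log2 fold change −0.38, standard error 0.10, edgeR adjusted p = 0.0362). That call was lost without any of WT replicates 4, 7 and 8 or B3AR-Tg replicates 4 to 8 (0.0506 to 0.0865), and with library-size scaling (log2 fold change −0.30, adjusted p = 0.139), the non-myocyte covariate (−0.51, 0.134) or no low-count filter (−0.36, 0.0661). The other 21 did not pass, among them, named after their values were seen, Pdk4, a kinase that restrains glucose oxidation (log2 fold change 0.38, edgeR adjusted p = 0.409), Gabarapl1 of autophagy (0.04, 0.933) and Txnip (0.00, 0.996). Nearest the threshold, and named in the same way, was Gadd45a (0.52, 95% interval 0.18 to 0.87, edgeR adjusted p = 0.0755). Bnip3l (−0.23, 0.145), Cited2 (0.43, 0.203) and Bnip3 (−0.35, 0.254) came next.

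Of 41 tested other muscle ligases and ligase subunits, 1 rose and 0 fell, with a median log2 fold change of 0.08. Cblb, a ring-finger ligase that restrains growth factor signalling and acts on IRS1 in unloaded muscle, was 5.40, 7.38 and 9.13 CPM in WT, against 7.73, 11.8 and 16.6 CPM in B3AR-Tg. In B3AR-Tg 7 of 8 animals were above every WT animal, and Cblb rose by 0.72 on the log2 scale (standard error 0.14, edgeR adjusted p = 0.00668). With the non-myocyte covariate its value was 0.75 (0.110). The chaperone-linked ligase gene Stub1 (0.16, edgeR adjusted p = 0.294), Mdm2 (0.15, 0.337) and the ubiquitin gene Ubb (0.11, 0.664), named after their values were seen, did not pass.

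Of 18 tested substrates and partners of the ligases, 1 fell and 0 rose (median log2 fold change −0.00). That gene was Myh7, the slow myosin heavy chain, which also stands in the load marker list (log2 fold change −2.03, standard error 0.39, edgeR adjusted p = 0.00632). With the non-myocyte covariate it was −1.61 (0.206). The Asb2 partners Flna and Des missed the threshold, with filamin A at −0.61 (edgeR adjusted p = 0.0659) and desmin at −0.46 (0.0783), and were named after their values were seen.

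Of 20 tested genes regulated by glucocorticoids or Klf15, 1 rose and 0 fell (median log2 fold change 0.03). Gpt, an alanine aminotransferase that Klf15 regulates, was 15.1, 18.8 and 30.3 CPM in WT, against 26.9, 32.6 and 46.6 CPM in B3AR-Tg, with 6 of 8 B3AR-Tg animals above every WT animal (log2 fold change 0.79, standard error 0.15, edgeR adjusted p = 0.00507). With the non-myocyte covariate it was 0.60 (0.163). The glucocorticoid receptor gene Nr3c1 (0.05, edgeR adjusted p = 0.837) and the receptor targets Tsc22d3 (0.15, 0.527), Per1 (0.10, 0.840) and Zbtb16 (0.02, 0.985), named after their values were seen, did not pass. Fkbp5, a further receptor target named in the same way, was 4.71, 7.40 and 21.3 CPM in WT, against 2.21, 2.84 and 14.8 CPM in B3AR-Tg. For Fkbp5, 7 of 8 B3AR-Tg animals lay below every WT animal. The wide spread left the Fkbp5 log2 fold change of −1.33 short of the threshold (standard error 0.42, edgeR adjusted p = 0.0747). Next nearest in this list, named in the same way, were Ddit4 (−1.12, edgeR adjusted p = 0.103), Kcnip2 (0.40, 0.118), Gpt2 (0.36, 0.209) and Cebpd (−0.42, 0.209).

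**Figure D5:**
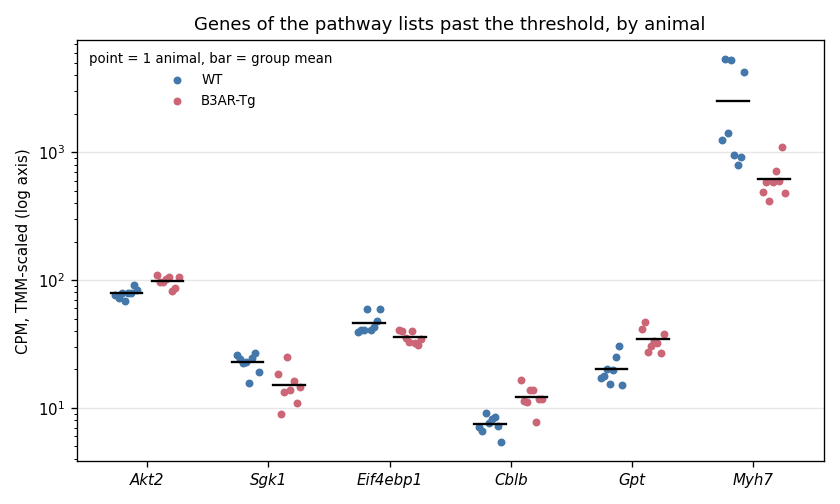
CPM on a log axis for the 6 pathway genes past the adjusted threshold (x axis) in 8 WT (blue) and 8 B3AR-Tg (red) animals, where each point is 1 animal and each bar a group mean. Akt2, Cblb and Gpt are higher in B3AR-Tg and Sgk1, Eif4ebp1 and Myh7 lower, with overlapping groups in each.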

How the data were processed

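RNA was sequenced from ventricular myocytes of 16 mice. Per the labels' protocols, cells were isolated by Langendorff perfusion and plated briefly, and stranded total RNA libraries were made after ribosomal depletion. The authors deposited whole-number counts per gene, without normalization. The submitters' processing notes name Salmon and the build GRCm39. Whether the counts are rounded Salmon estimates, and the strand setting and annotation, are not given in the sources used here.

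Genotypes were compared with edgeR 4.0.16 (quasi-likelihood F test, genotype only) in R 4.3.3 after filterByExpr (minimum count 10, total 15) and TMM scaling, with Benjamini-Hochberg adjustment over all 10945 tested genes and a threshold of 0.05. Intervals are the log2 fold change ± the critical value of t for a 95% interval times the standard error. That standard error was derived from the log2 fold change and the quasi-likelihood F statistic. Scores are mean log2 CPM (prior count 2) of markers, centred per gene. Correlations used all 40320 pairings of 8 animals, and ratios (0.5 added to counts) all 12870 splits of the animals. The main edgeR fit was tested on simulated data. Alternatives used RLE, upper-quartile and library-size scaling, other filters, DESeq2 1.42.0, limma 3.58.1 voom, covariates, a replicate block and each animal left out.

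The members and lists were chosen with earlier results of these data known. Named genes were all members, and up to 3 per direction and list past the threshold, and others where the text says that they were chosen after their values were seen. Some genes are not reported here and were left out of the list counts. By the same rule, similar genes were to be named only for members past the threshold, of which there were 0. Exon lengths (GENCODE M21) and promoters (RefSeq) are on GRCm38, not the build in the notes. In GENCODE M21, Fbxo32, Trim54, Asb2 and Foxo1 overlap antisense genes and Trim55 and Foxo1 overlap others on their own strand, none of them in the count table, so such reads may be counted with the members. Within genotypes, chi-square per gene was at least 6.03 over 56 pairs of libraries, so each was kept as 1 animal. P-values set differences between genotypes, or relations within a genotype, against the variation between these animals.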

Additional observations from a re-analysis of the deposited data

Results flagged for a closer look

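In each group of 8 animals, the distance of an end value to the next one was divided by the whole range of log2 CPM and set against Dixon's 95% critical value, 0.526. Of 32 groups, 2 exceeded it, where chance gives 1 in 20, or 1.6. Trim63 was low in B3AR-Tg replicate 1, at 96.4 CPM where the other 7 had 129 to 156 CPM, and its gap took 0.599 of the range. Foxo3 was low in B3AR-Tg replicate 3, at 50.9 CPM against 76.8 to 93.0 CPM, with a gap of 0.682.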

How the results depend on the processing

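Across 26 alternatives, 0 members passed an adjusted p of 0.05 in any, the lowest adjusted p being 0.107 (Fbxo32 without B3AR-Tg replicate 1), so 0 of 260 values crossed the threshold. The count over all genes, 537, became 230 with the replicate block and 19 with the non-myocyte covariate. The count was 804 with DESeq2, 706 with limma voom, and 272 to 675 when single animals were left out. It was 272 without WT replicate 4, 277 without B3AR-Tg replicate 5 and 345 without B3AR-Tg replicate 8. Scaling by library size turned the split of 222 higher and 315 lower into 346 and 165, and moved the median of all genes by 0.08. Values near zero changed sign. Trim63 was 0.078 with library-size scaling, 0.0029 without mitochondrial genes and Gm20594, 0.017 without the low-count filter, and −0.032 to 0.062 when animals were left out. Trim55 was 0.066 with library-size scaling and −0.087 to 0.036 when animals were left out. Leaving out single animals kept the sign of the other 8 members, at 0.12 to 0.27 for Fbxo32, 0.013 to 0.12 for Trim54, −0.21 to −0.065 for Fbxo40, 0.068 to 0.18 for Asb2, 0.094 to 0.29 for Foxo1, 0.032 to 0.16 for Foxo3, 0.11 to 0.25 for Foxo4 and 0.13 to 0.30 for Klf15. With the non-myocyte covariate Asb2 was −0.090 and Klf15 −0.31, and Foxo1 (0.38), Foxo4 (0.36), Trim54 (0.23), Trim63 (−0.14), Fbxo32 (0.11), Fbxo40 (−0.0081) and Trim55 (−0.0019) moved by over 1.5 times. The log2 ratio differences ranged, when animals were left out, from −0.21 to −0.13 for Trim63/Fbxo32, −0.010 to 0.15 for Foxo1/Foxo3 and −0.135 to 0.19 for Klf15/Foxo1. The causes were not tested. Same-numbered animals did not deviate together (r −0.22 to 0.09, 0 of 8 pairs over 0.1), so no pairing by number was seen, which does not exclude one. With the replicate block the adjusted p was 0.0774 for Akt2, 0.0618 for Sgk1 and 0.126 for Eif4ebp1, and the other called pathway genes stayed under 0.05. Foxo1 had the fewest counts of the members, 37 in the lowest library.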
